A study of Mus musculus with 8 samples.

Results

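Metallothioneins are small, cysteine-rich proteins that bind zinc and copper and buffer the free metal in a cell. Zinc ions activate MTF1, a zinc-finger transcription factor that binds short DNA motifs called metal response elements, and in mouse cells this raises Mt1, Mt2 and the zinc exporter gene Slc30a1 and lowers the zinc importer gene Slc39a10. The genes described here are the metallothionein genes Mt1, Mt2 and Mt3, the regulator gene Mtf1, and the transporter genes Slc30a1 and Slc39a10. They were chosen by name, as every probe set with 1 gene symbol in the platform's annotation and that symbol among these 6. This gave 13 of the 45101 probe sets on the array, and 6 of the 18193 genes that these probe sets could name. Mt1 and Slc30a1 had 2 probe sets each, as did Slc39a10, Mtf1 had 5, and Mt2 and Mt3 had 1 each.

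The samples were mouse embryonic stem (ES) cells, 8 arrays in 4 groups of 2. The groups were Rbp2-/- cells and Rbp2f/f cells after 6 days without leukemia inhibitory factor (LIF), and Rbp2-/- cells and Rbp2f/f cells grown with LIF, the cytokine that holds mouse ES cells in an undifferentiated state. Rbp2 was read as the gene for the histone demethylase RBP2, now named Kdm5a, and the f/f genotype carries that gene with its alleles flanked for deletion but present. The labels name no promoter or enzyme used for the deletion and do not say whether a genotype is 1 clone or several, nor whether feeder cells were present. The replicates are called biological, with no word on cultures or days, so p-values measure only the spread between these samples, which may be partly technical.

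Kdm5a read 100 and 80.2 in Rbp2-/- cells without LIF against 225.7 and 246.6 in Rbp2f/f cells without LIF. With LIF it read 31.2 and 30.6 in Rbp2-/- cells against 128.2 and 167.2 in Rbp2f/f cells, so the arrays did not overlap in either medium. All values are intensities on the authors' linear scale. Replicate 2 of Rbp2-/- with LIF was dim, with a 2% trimmed mean of 77.5 against 110.5 to 128.4 on the other 7 arrays. The median difference of all 10916 genes tested was therefore -0.28 in log2 for Rbp2-/- minus Rbp2f/f with LIF and 0.39 for withdrawal in Rbp2-/- cells, against 0.02 for the genotypes without LIF and 0.07 for withdrawal in Rbp2f/f cells. The 10 ES cell markers, Pou5f1 and Nanog among them, summed to between 1494 and 1796 in Rbp2-/- and between 2002 and 2080 in Rbp2f/f cells after withdrawal, and to between 7455 and 14290 in Rbp2-/- and between 13320 and 14270 in Rbp2f/f with LIF. Feeder fibroblast markers, 11 of 12 measured, summed to between 2542 and 5106 in Rbp2-/- against 2222 and 2450 in Rbp2f/f cells after withdrawal, and to 968.7 and 1090 in Rbp2-/- against 469.1 and 700 in Rbp2f/f with LIF. The 15 extraembryonic endoderm markers summed to 6632 and 6975 in Rbp2-/- against 7586 and 8552 in Rbp2f/f cells after withdrawal, and to between 3504 and 3961 in Rbp2-/- against 2251 and 4011 in Rbp2f/f with LIF. These sums rest on a few bright genes, and Sparc and Col4a1 carried most of the endoderm sum. Of the 8 endoderm markers tested, 2 were higher and 6 lower in Rbp2-/- without LIF, and 0 were called. Gata4 read 156.5 and 187.9 in Rbp2-/- against 129.2 and 82.4 in Rbp2f/f without LIF. Sox17 read 29.9 and 58.3 in Rbp2-/- against 153.6 and 106.9 in Rbp2f/f, and Foxa2 read 54.8 and 80.1 against 137.2 and 115.4. The feeder sum of 5106 included 2811.2 from Col1a1 on replicate 1 of Rbp2-/-, while Col3a1 read 147.5 and 178.8 in Rbp2-/- against 410.8 and 446.1 in Rbp2f/f. None of the markers in these 3 lists was at 0 on any array, and the part of other cell types in the results below was not tested. In bulk RNA, fewer cells of a type and less RNA per cell cannot be told apart.

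Mt4, Mt3, Mt2 and Mt1 lie next to each other on mouse chromosome 8, with 1 long noncoding gene model between Mt3 and Mt2. All 6 genes had promoter windows in RefSeq's table for GRCm38.p6, each spanning 250 bases before and 50 bases after an annotated start. These windows were searched on both strands for the core of the metal response element, written TGCACNC or TGCGCNC. The Mt2 window held 4 cores, the Mt1 window 3, the Slc30a1 window 2 and the Mt3 window 1, while the Mtf1 window and both Slc39a10 windows held 0. Upstream of the annotated start lay 3 of the Mt2 cores, 1 of the Mt1 cores, 1 of the Slc30a1 cores and 0 of Mt3. The rest lay after the annotated start. Whether transcription begins at that start was not checked, and bases outside the windows were not searched. Of the 32851 windows in the table, 25.7% held at least 1 core, 7.11% at least 2, 1.97% at least 3 and 0.517% at least 4. A match describes the letters only, and its use by MTF1 was not measured. They are shown because such elements are the DNA that MTF1 binds. Each is given with 9 bases on either side, 5′ to 3′ on the strand where the core reads as written above, with the core in capitals.
Mt1 site 1, chr8:94179057-94179081, plus strand: gtcccgctgTGCACACtggcgctcc
Mt1 site 2, chr8:94179082-94179106, plus strand: agggagctcTGCACTCcgcccgaaa
Mt1 site 3, chr8:94179100-94179124, plus strand: cccgaaaagTGCGCTCggctctgcc
Mt2 site 1, chr8:94172386-94172410, plus strand: catcgcctcTGCACCCggcccctcg
Mt2 site 2, chr8:94172481-94172505, plus strand: cagacccttTGCGCTCagctccttt
Mt2 site 3, chr8:94172559-94172583, minus strand: gacagagccTGCACACgccctcccc
Mt2 site 4, chr8:94172613-94172637, minus strand: ccctgggccTGCGCACgacccgaat
Mt3 site 1, chr8:94152625-94152649, plus strand: ggacagcagTGCACACacacggaga
Slc30a1 site 1, chr1:191906729-191906753, minus strand: actttgcttTGCACTCggaaccccc
Slc30a1 site 2, chr1:191906802-191906826, minus strand: cgcggcgacTGCGCTCggcccggag

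All 4 of these genes are on the plus strand. The 250 bases upstream of the annotated Mt2 start, chr8:94172368-94172617, plus strand, show how the first 3 of its cores are spaced. The capitals are again the cores, the last of them in the orientation of the minus strand.
Mt2 upstream region: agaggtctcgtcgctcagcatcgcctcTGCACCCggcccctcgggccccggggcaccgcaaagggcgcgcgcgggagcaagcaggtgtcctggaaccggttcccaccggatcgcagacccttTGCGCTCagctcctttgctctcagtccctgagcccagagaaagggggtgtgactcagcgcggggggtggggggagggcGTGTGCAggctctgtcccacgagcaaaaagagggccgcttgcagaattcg

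**Figure D1:**
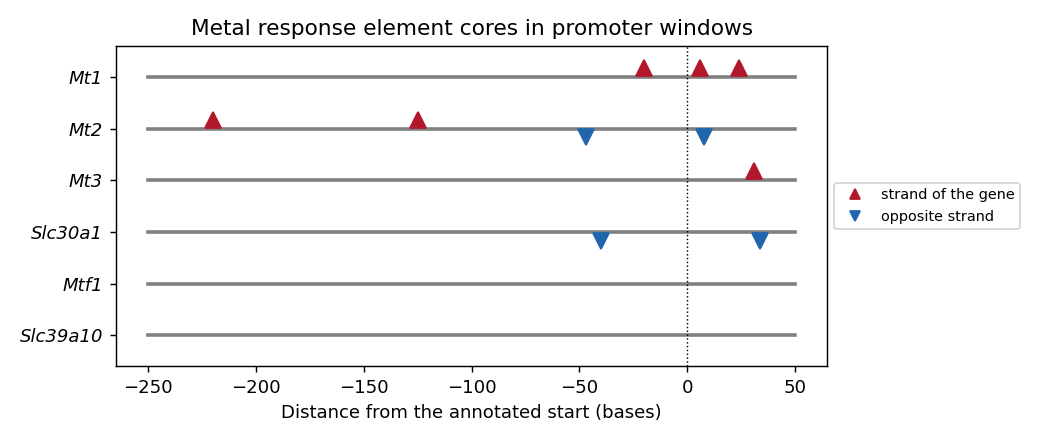
Positions of metal response element cores (triangles, up for the strand of the gene and down for the opposite strand) in the promoter windows of the 6 genes, by distance in bases from the annotated start, which the dotted line marks. Mt2 carries 4 cores and Mt1 carries 3, Slc30a1 carries 2, Mt3 carries 1, and Mtf1 and Slc39a10 carry 0; the first of the 2 Slc39a10 windows stands for both.

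Withdrawal of LIF for 6 days was compared with growth in LIF in each genotype to see what happens to zinc handling genes as the cells leave the ES state. Mt1 and Mt2, the metallothioneins that most tissues express, fell in both genotypes. Mt3, a metallothionein best known from brain, fell in Rbp2f/f cells. Mtf1, Slc30a1 and Slc39a10 did not pass the test in either genotype. Limma called 2 of the 6 genes in Rbp2-/- cells, both lower, where 3.33% of all genes were called lower. It called 3 of the 6 in Rbp2f/f cells, all lower, where 6.97% of all genes were. Of those 3, Mt3 cleared the filter on low values only through its arrays with LIF, so the filter favoured its fall. Without the filter Mt3 was still called in Rbp2f/f cells (limma adjusted p = 0.015). After quantile normalization the shares of all genes called lower were 8.23% in Rbp2-/- and 13.1% in Rbp2f/f cells. Arrays that did not overlap between media were lower for 7.7% and higher for 51.9% of all genes in Rbp2-/- cells, and lower for 30% and higher for 38.5% in Rbp2f/f cells.

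After withdrawal Mt1 read 417.3 and 702.8 in Rbp2-/- cells and 1021.2 and 1568.8 in Rbp2f/f cells, against 3257 and 2856 in Rbp2-/- and 3862.9 and 3572.9 in Rbp2f/f with LIF. Every array without LIF was below every array with LIF. The mean without LIF was 18.3% of the mean with LIF in Rbp2-/- cells and 34.8% in Rbp2f/f cells. On the log2(intensity + 16) scale Mt1 fell by 2.46 ± 0.28 in Rbp2-/- (SE, limma adjusted p = 5.4e-05) and by 1.54 ± 0.28 in Rbp2f/f (limma adjusted p = 0.0013). After quantile normalization, which brings the dim array to the level of the rest, these differences were -2.76 and -1.47.

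Mt2 showed the same order of arrays. After withdrawal it read 738.5 and 1222.9 in Rbp2-/- cells and 1670.9 and 2301.5 in Rbp2f/f cells, against 4414.2 and 3276.6 in Rbp2-/- and 5165.5 and 4522.9 in Rbp2f/f with LIF. The remaining share was 25.5% in Rbp2-/- cells and 41% in Rbp2f/f cells. The log2 difference was -1.98 ± 0.26 in Rbp2-/- (limma adjusted p = 0.00019) and -1.29 ± 0.26 in Rbp2f/f (limma adjusted p = 0.0032). Among all genes tested, ordered from the most negative difference, Mt1 ranked 38 and Mt2 ranked 90 in Rbp2-/- cells, and 216 and 322 in Rbp2f/f cells.

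The bright Mt1 probe set has a name ending in _s_at, which the manufacturer gives to sets that can match more than 1 transcript, and Mt1 and Mt2 are close paralogs. Their signals may therefore share a source. The other Mt1 probe set was dim, at 7.4 and 9.5 in Rbp2-/- cells and 8.7 and 15.1 in Rbp2f/f cells after withdrawal, against 12.4 and 30.2 in Rbp2-/- and 15.8 and 15.8 in Rbp2f/f with LIF. Its log2 differences on withdrawal were -0.57 ± 0.28 and -0.20 ± 0.28, in that order of genotypes, and neither passed the test (limma adjusted p = 0.30 and 0.80, over all probe sets). When both Mt1 probe sets were averaged, the withdrawal difference of the gene shrank to -1.51 in Rbp2-/- and -0.87 in Rbp2f/f, and both stayed called.

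After withdrawal Mt3 read 31.7 and 3.9 in Rbp2-/- cells and 1.9 and 3.6 in Rbp2f/f cells, against 71.5 and 29.8 in Rbp2-/- and 70.1 and 64.8 in Rbp2f/f with LIF. In Rbp2f/f cells the arrays with and without LIF did not overlap, while replicate 1 of Rbp2-/- without LIF stood above replicate 2 of Rbp2-/- with LIF. The fall in Rbp2f/f cells was 2.16 ± 0.40 in log2 (limma adjusted p = 0.0019). In Rbp2-/- cells the difference was -1.04 ± 0.40 (limma adjusted p = 0.075). It was -1.67 and passed once the Rbp2-/- array of replicate 1 after withdrawal was left out (limma adjusted p = 0.020). Mt3 has a mean of 34.7 over all arrays and cleared the filter on low values, 28.3, only through its arrays with LIF, so the filter favoured a fall. Its size depends on the constant added before the logarithm, being -3.42 with a pseudocount of 4 and -0.98 with 64 in Rbp2f/f cells.

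**Figure D2:**
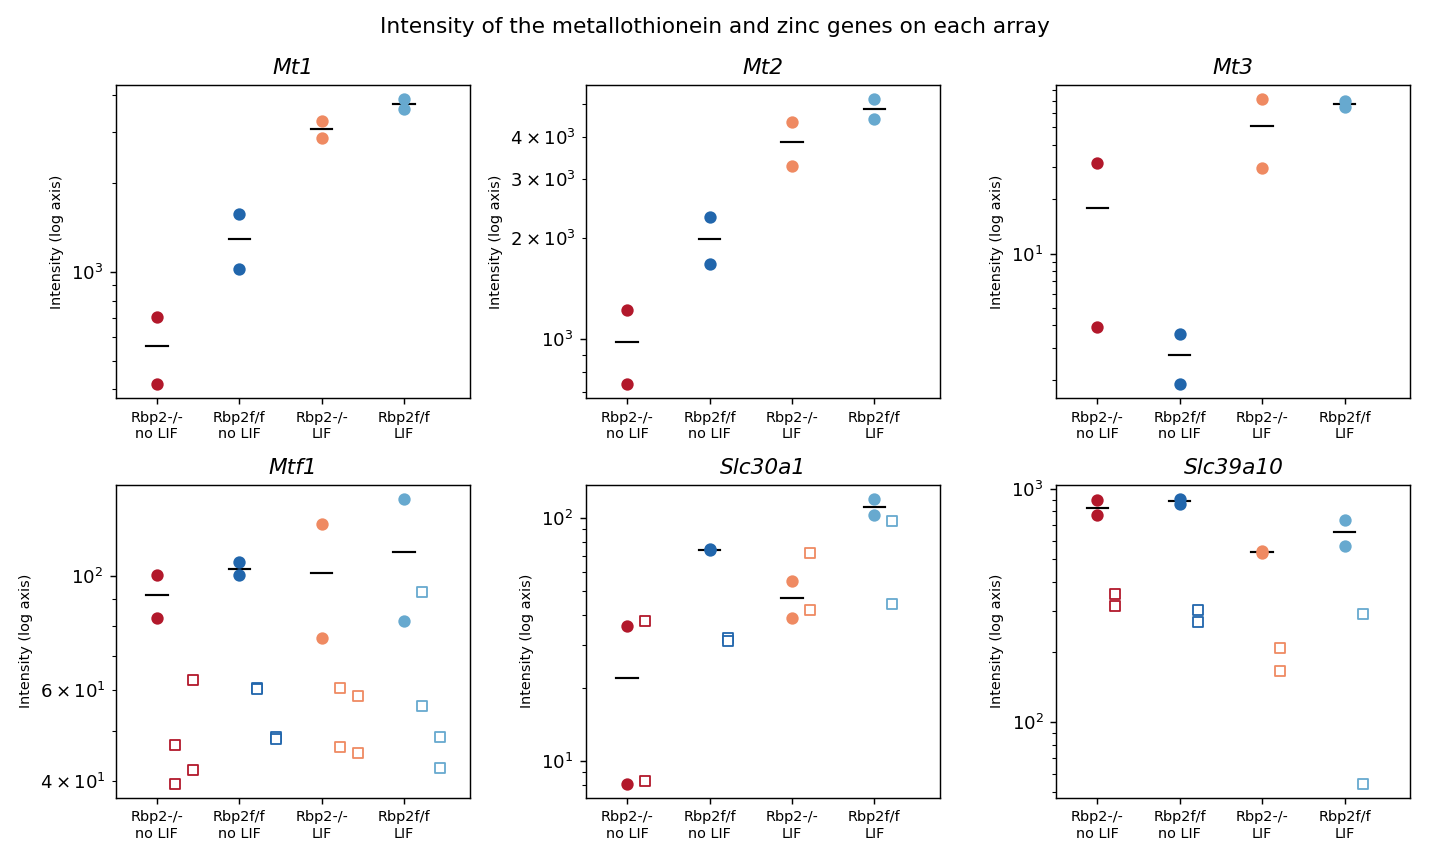
Intensity (log axes) of each of the 6 genes on each of the 8 arrays, by group; filled circles are the brightest probe set of the gene, black bars are its group mean of 2 arrays, and open squares are other probe sets above the filter. Mt1 and Mt2 step down together on all arrays without LIF, with Rbp2-/- lowest, while Mtf1 stays between 75.9 and 140.8.

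Mtf1 itself did not pass the test between media. After withdrawal its brightest probe set read 82.8 and 100.5 in Rbp2-/- cells and 100.2 and 106.3 in Rbp2f/f cells, against 126.1 and 75.9 in Rbp2-/- and 140.8 and 81.7 in Rbp2f/f with LIF. As deposited, the arrays overlapped between media in both genotypes, and the log2 difference on withdrawal was -0.09 ± 0.30 in Rbp2-/- and -0.05 ± 0.30 in Rbp2f/f, with 95% intervals of -0.73 to 0.55 and -0.69 to 0.58 (limma adjusted p = 0.85 and 0.93). Relative to the all-gene median these were -0.48 and -0.12. After quantile normalization the Rbp2-/- arrays without LIF were lower without overlap, as for 29.8% of all genes, with a difference of -0.53 ± 0.24 (limma adjusted p = 0.18). The other 4 Mtf1 probe sets did not pass either. Of those, a pair read between 39.6 and 92.8 over all arrays and the other pair was at or under 14.6.

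Slc30a1 encodes ZnT1, which moves zinc out of the cell across the plasma membrane. After withdrawal its brighter probe set read 8.1 and 36 in Rbp2-/- cells and 74.9 and 73.8 in Rbp2f/f cells, against 39 and 55.2 in Rbp2-/- and 102.9 and 120.2 in Rbp2f/f with LIF. In each genotype the arrays without LIF were all lower than those with LIF. The log2 difference on withdrawal was -0.82 ± 0.33 in Rbp2-/- (limma adjusted p = 0.086) and -0.49 ± 0.33 in Rbp2f/f (limma adjusted p = 0.32), so neither was called. In Rbp2-/- cells the call was made after quantile normalization, at -1.21 ± 0.35 (limma adjusted p = 0.044), and also when the Rbp2-/- array of replicate 2 after withdrawal was left out, at -1.38 (limma adjusted p = 0.019). The other probe set gave differences close to these, -0.98 ± 0.45 in Rbp2-/- and -0.80 ± 0.45 in Rbp2f/f, which did not pass (limma adjusted p = 0.26 and 0.42, over all probe sets).

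Slc39a10 encodes ZIP10, a plasma membrane zinc importer. It was the only member with positive withdrawal differences as deposited. The brighter of its probe sets read, after withdrawal, 770 and 892.8 in Rbp2-/- cells and 864.7 and 905.5 in Rbp2f/f cells, against 544 and 531.2 in Rbp2-/- and 567.2 and 735 in Rbp2f/f with LIF. As deposited, the arrays did not overlap between media in either genotype. After quantile normalization they overlapped in Rbp2-/- cells, where the difference was 0.25 ± 0.20 (limma adjusted p = 0.43). The log2 difference was 0.61 ± 0.25 in Rbp2-/- and 0.44 ± 0.25 in Rbp2f/f, short of the threshold (limma adjusted p = 0.092 and 0.24), and relative to the all-gene median it was 0.22 and 0.38. Without replicate 1 of Rbp2-/- with LIF, which leaves the dim array alone in its group, the Rbp2-/- value was 0.63 and passed (limma adjusted p = 0.048). The dimmer probe set read 314.3 and 355.1 in Rbp2-/- cells and 303.4 and 268.9 in Rbp2f/f cells after withdrawal, against 207.8 and 164.8 in Rbp2-/- and 54.5 and 290.9 in Rbp2f/f with LIF, where the Rbp2f/f replicates stood far apart.

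The 4 comparisons of medium and genotype share arrays, so their differences are given side by side and not as independent results. Whether withdrawal acted differently in Rbp2-/- and Rbp2f/f cells was tested as the difference of the withdrawal effects. Limma called 0 of the 6 genes, and 0% of all genes tested, while 1 of the 6 had an unadjusted p under 0.05, as had 11.6% of all genes. That gene was Mt1, whose fall was larger in Rbp2-/- cells by 0.92 ± 0.39 in log2 (unadjusted p = 0.033, limma adjusted p = 0.41). For Mt2 the value was -0.69 ± 0.37 (limma adjusted p = 0.47) and for Mt3 it was 1.12 ± 0.57 (limma adjusted p = 0.45). The all-gene median of this contrast was 0.31, and after quantile normalization Mt1 stood at -1.30, Mt2 at -1.08 and Mt3 at 0.87, with no call. Mt1 and Mt2 then had unadjusted p = 0.0036 and 0.0047 in limma, and 11.1% of all genes had one under 0.05.

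**Figure D3:**
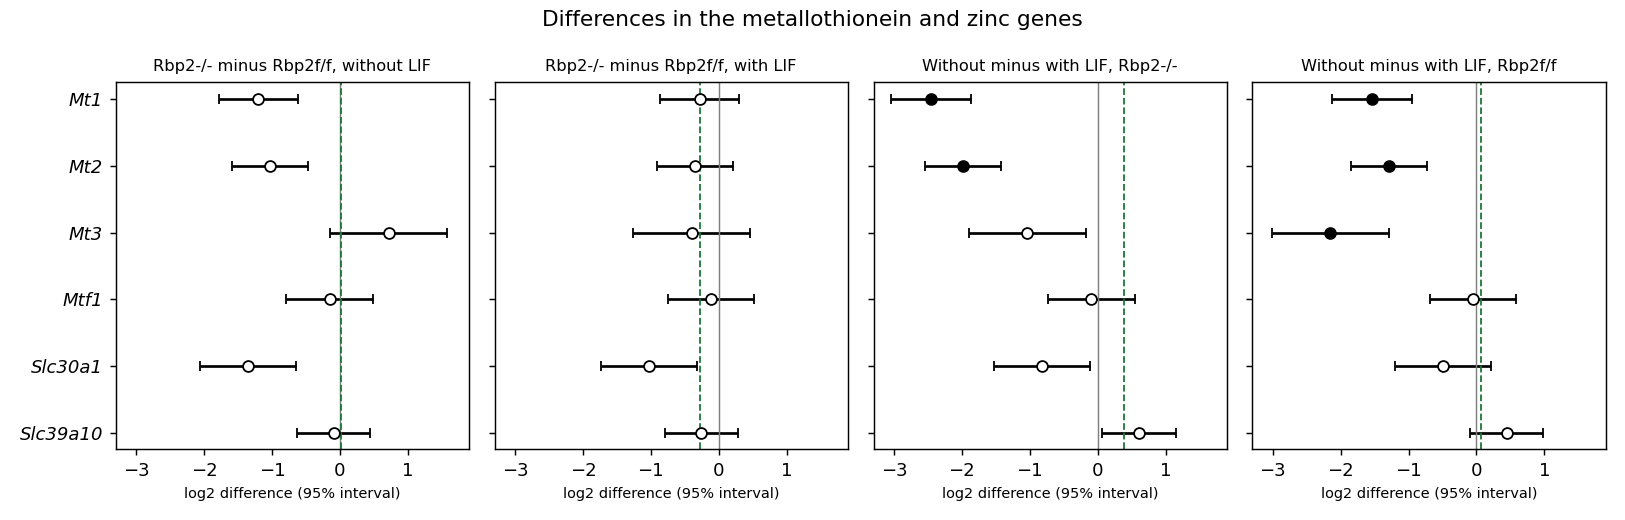
Log2 differences of the 6 genes in the 4 comparisons, with 95% intervals from the limma fit; filled circles passed at an adjusted p under 0.05, the grey line is 0 and the dashed green line is the median of all genes tested. Mt1 and Mt2 passed in both withdrawal comparisons and Mt3 in Rbp2f/f cells, and 0 of the 6 passed between genotypes.

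The genotypes without LIF were compared to see how the same genes stood in differentiating Rbp2-/- and Rbp2f/f cells. RBP2 protein was not measured. The targeted gene Kdm5a was itself not called without LIF, at -1.25 ± 0.25 in log2 (limma adjusted p = 0.091). With LIF it was called, at -1.79 ± 0.25 (limma adjusted p = 0.022). That call was lost after quantile normalization, at -1.60 (limma adjusted p = 0.071), and without the filter on low values (limma adjusted p = 0.16). On withdrawal it rose by 1.17 ± 0.25 in Rbp2-/- and by 0.63 ± 0.25 in Rbp2f/f cells (limma adjusted p = 0.0051 and 0.093). Mt1, Mt2 and Slc30a1 read lower on both Rbp2-/- arrays than on both Rbp2f/f arrays, at 43.2%, 49.4% and 29.7% of the Rbp2f/f mean. None of the 6 genes passed the test, where 0.0275% of all genes did, and 3 of the 6 had an unadjusted p under 0.05, as had 10.1% of all genes. Arrays that do not overlap are common in this design: 23% of all genes were lower and 30.5% higher on both Rbp2-/- arrays.

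The Mt1 difference was -1.20 ± 0.28 in log2 (unadjusted p = 0.00057, limma adjusted p = 0.12), that of Mt2 was -1.03 ± 0.26 (unadjusted p = 0.0013, limma adjusted p = 0.15) and that of Slc30a1 was -1.35 ± 0.33 (unadjusted p = 0.001, limma adjusted p = 0.14). Replicate 1 of Rbp2-/- was the lowest array for each of them, and for Slc30a1 it read 8.1 against 36 in replicate 2. Their size changed with the Rbp2-/- array left out. Without replicate 2 of Rbp2-/- lacking LIF the differences were -1.57 for Mt1, -1.39 for Mt2 and -1.91 for Slc30a1. Without replicate 1 they shrank to -0.83, -0.67 and -0.80. Each of these fits leaves a single Rbp2-/- array without LIF, so no p-value is given. Quantile normalization left them near the deposited values, at -1.26, -1.09 and -1.34, with limma adjusted p = 0.11, 0.11 and 0.16. With array weights all 3 were called, at limma adjusted p = 0.015, 0.018 and 0.018. That setting also called many more of all genes than the main fit did, as counted in the section on processing. With 2 arrays per group the deviations from the group mean are equal in size. These weights therefore follow the spread of whole groups and cannot grade a single array. The array that was lowest for these genes was also the one with 2811.2 for Col1a1, against 716.1 in replicate 2. The other feeder markers were mixed between these arrays. Col1a2, Col5a1, Postn, Twist2 and Lum were also higher in replicate 1, while Col3a1, Pdgfrb, Thy1, Dcn and Prrx1 were lower. Col3a1 read 147.5 there against 178.8 in replicate 2, and 410.8 and 446.1 in Rbp2f/f. The part of feeder RNA in the result was not tested.

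The 2 Slc30a1 probe sets did not show the same pattern between genotypes. The dimmer of them read 8.3 and 37.8 in Rbp2-/- against 32.2 and 31.3 in Rbp2f/f without LIF, so the groups overlapped, and its log2 difference was -0.40 ± 0.45. Replicate 1 of Rbp2-/- was low on both probe sets, at 8.1 and 8.3. Replicate 2 was below Rbp2f/f on the brighter set and above it on the dimmer.

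Mt3 ran the other way, with 31.7 and 3.9 in Rbp2-/- against 1.9 and 3.6 in Rbp2f/f. Its log2 difference was 0.72 ± 0.40 (limma adjusted p = 0.62) and came from replicate 1, since without it the value was 0.09. Thus the Rbp2-/- array that was lowest for Mt1, Mt2 and Slc30a1 was the highest without LIF for Mt3. Mtf1 was at -0.15 ± 0.30 and Slc39a10 at -0.09 ± 0.25, with 95% intervals of -0.79 to 0.48 and -0.63 to 0.45 and arrays that overlapped as deposited. After quantile normalization both were lower in Rbp2-/- without overlap, as were 29.2% of all genes.

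With LIF the genotypes were compared to see whether these genes differed before withdrawal. Limma called 0 of the 6 genes, where 0.257% of all genes were called. Only 1 of the 6, Slc30a1, had an unadjusted p under 0.05, as had 17.7% of all genes. Its brighter probe set read 39 and 55.2 in Rbp2-/- against 102.9 and 120.2 in Rbp2f/f, a log2 difference of -1.02 ± 0.33 (unadjusted p = 0.0077, limma adjusted p = 0.17). Once the median of all genes was subtracted, -0.74 remained. The arrays did not overlap as deposited, where 39.2% of all genes were lower without overlap. Nor did they after quantile normalization, where 21.6% of all genes were lower without overlap and the Slc30a1 difference was -0.78 ± 0.35 (limma adjusted p = 0.38). The dimmer probe set overlapped again, with 72 and 42 in Rbp2-/- against 97.7 and 44.5 in Rbp2f/f.

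Mt1 and Mt2 differed little between genotypes with LIF. Their log2 differences were -0.28 ± 0.28 and -0.34 ± 0.26, next to an all-gene median of -0.28, and after quantile normalization they were 0.037 and -0.0050. As deposited, the arrays of both genes were lower in Rbp2-/- without overlap, as they were for 39.2% of all genes, and after quantile normalization they overlapped. The 95% intervals, -0.87 to 0.30 and -0.90 to 0.21, leave room for a difference of either sign. Mt3, Mtf1 and Slc39a10 stood at -0.40, -0.12 and -0.26.

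Other zinc transporters were taken from 2 lists, the exporters of the SLC30 family and the importers of the SLC39 family without the 2 transporters above. Of the 9 exporters 7 were bright enough to test, and of the 13 importers 10 were. Between genotypes 0 of these 17 passed in either medium. On withdrawal limma called 5 higher and 1 lower in Rbp2-/- cells, against backgrounds of 19.7% and 3.33%, and 3 higher and 2 lower in Rbp2f/f cells, against 13.4% and 6.97%. After quantile normalization the counts were 2 higher and 2 lower in Rbp2-/- and 4 higher and 2 lower in Rbp2f/f, against backgrounds of 7.3% and 8.23% in Rbp2-/- and 14% and 13.1% in Rbp2f/f cells.

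Slc39a8, which encodes the importer ZIP8, rose in both genotypes. Values after withdrawal were 82.6 and 163.4 in Rbp2-/- cells and 229.8 and 192.9 in Rbp2f/f cells, against 15.5 and 25.2 in Rbp2-/- and 22.6 and 40.1 in Rbp2f/f with LIF. The log2 change was 1.88 ± 0.32 in Rbp2-/- and 2.28 ± 0.32 in Rbp2f/f (limma adjusted p = 0.0011 and 0.00022), and it was called under every alternative tried. Its arrays with LIF alone would not have cleared the filter, so it was tested through the arrays where it is high. Without the filter it was still called (limma adjusted p = 0.014 in Rbp2-/- and 0.0054 in Rbp2f/f). Slc39a14, the gene of the importer ZIP14, fell. Values after withdrawal were 76.7 and 107.9 in Rbp2-/- cells and 57.8 and 67.1 in Rbp2f/f cells, against 238.7 and 169.1 in Rbp2-/- and 313.7 and 267.3 in Rbp2f/f with LIF. The change was -1.02 ± 0.27 in Rbp2-/- and -1.96 ± 0.27 in Rbp2f/f (limma adjusted p = 0.016 and 2e-04), and the Rbp2-/- call was lost with array weights, with averaged probe sets, at a threshold of 0.01 and when the Rbp2-/- array of replicate 1 after withdrawal was left out.

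Slc39a4, the gene of the intestinal importer ZIP4, fell by 1.23 ± 0.36 in Rbp2f/f cells (limma adjusted p = 0.025) and was at -0.84 ± 0.36 in Rbp2-/- cells (limma adjusted p = 0.10). After quantile normalization Slc39a4 was called lower in both genotypes (limma adjusted p = 0.038 in Rbp2-/- and 0.020 in Rbp2f/f). Slc39a1, the gene of the importer ZIP1, rose by 0.93 ± 0.30 in Rbp2-/- and by 1.21 ± 0.30 in Rbp2f/f cells (limma adjusted p = 0.038 and 0.011). Slc39a7, whose product releases zinc from the endoplasmic reticulum, rose by 1.01 ± 0.33 in Rbp2-/- cells (limma adjusted p = 0.036). In Rbp2f/f cells Slc39a7 was at 0.36 ± 0.33 (limma adjusted p = 0.48). Among exporters, Slc30a7 of the Golgi rose by 1.07 ± 0.28 (limma adjusted p = 0.013) and Slc30a9 by 0.87 ± 0.26 (limma adjusted p = 0.029) in Rbp2-/- cells. In Rbp2f/f cells these were at 0.77 and 0.07 (limma adjusted p = 0.060 and 0.88). Slc30a6 rose by 0.81 ± 0.26 in Rbp2f/f cells (limma adjusted p = 0.040) and was at 0.68 in Rbp2-/- cells (limma adjusted p = 0.073). After quantile normalization Slc30a7 was called in both genotypes (limma adjusted p = 0.049 in Rbp2-/- and 0.035 in Rbp2f/f). No transporter of these lists was called for the difference of the withdrawal effects. The all-gene median of 0.39 lies within the Rbp2-/- values, and after quantile normalization Slc39a1, Slc39a7 and Slc30a9 were no longer called there (limma adjusted p = 0.32, 0.076 and 0.18). How many pass was also counted with each array left out, an alternative chosen after seeing the data. The count turned on single arrays in both genotypes. Such a fit leaves a single array in a group, and the share of all genes called in the same fit was not set beside it. The counts are therefore not given and say nothing particular to zinc transporters.

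**Figure D4:**
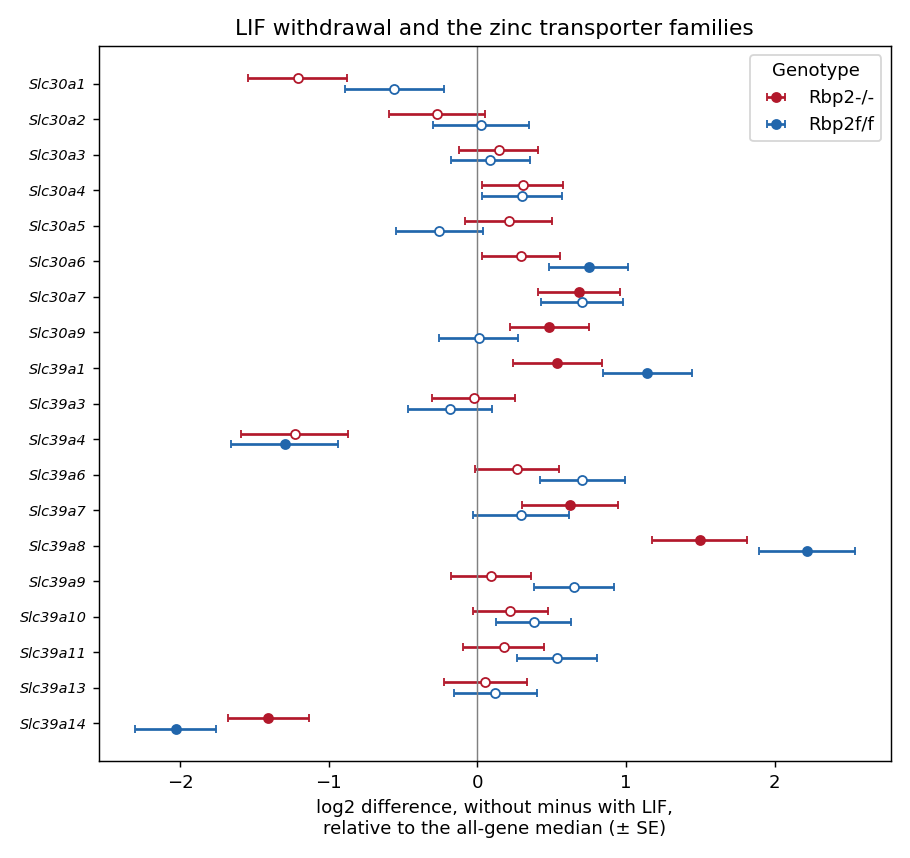
Log2 difference, without minus with LIF, for the tested genes of the SLC30 and SLC39 families in Rbp2-/- (red) and Rbp2f/f cells (blue), relative to the all-gene median of each comparison, with SE bars. Filled circles passed limma before that median was subtracted; Slc39a8 stands to the right and Slc39a14 to the left in both genotypes, while Slc30a1 lies left with open circles.

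Other metallothionein and MTF1 target genes formed a list of 6, all tested. On withdrawal 0 were higher and 1 lower in Rbp2-/- cells, against backgrounds of 19.7% and 3.33%, and 1 was higher and 1 lower in Rbp2f/f cells, against 13.4% and 6.97%. After quantile normalization the Rbp2-/- counts were 0 and 0, and the Rbp2f/f counts 1 and 1. Mt4, a metallothionein gene of stratified epithelium, read 11.3 and 7.4 in Rbp2-/- cells and 14.1 and 5.2 in Rbp2f/f cells after withdrawal, against 109.7 and 21.1 in Rbp2-/- and 62.9 and 27.6 in Rbp2f/f with LIF. It fell by 1.43 ± 0.47 in Rbp2-/- cells (limma adjusted p = 0.039), with replicates that stood far apart with LIF. Mt4 cleared the filter only through its arrays with LIF, and the call was lost without the filter (limma adjusted p = 0.11) and after quantile normalization (0.050). Gclc, which encodes the catalytic subunit for the first step of glutathione synthesis, fell by 1.29 ± 0.32 in Rbp2f/f cells (limma adjusted p = 0.010). Csrp1, a LIM-domain protein gene, rose by 1.26 ± 0.30 in Rbp2f/f cells (limma adjusted p = 0.0079). Between genotypes 0 of the 6 passed, and the smallest p in both media belonged to Slc40a1, the gene of the iron exporter ferroportin. It read 150.6 and 225.4 in Rbp2-/- against 322.5 and 391.9 in Rbp2f/f after withdrawal, and 139.8 and 179 in Rbp2-/- against 382.1 and 421.3 in Rbp2f/f in LIF medium. The log2 differences were -0.89 ± 0.28 and -1.26 ± 0.28 (limma adjusted p = 0.24 and 0.086).

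Across the 8 arrays, Mt1 and Mt2 were each other's closest match. Their levels, centred on the array median, correlated at r = 0.998, the highest of all genes tested for either of them. The next genes were shared: Folr1, which encodes a folate receptor, had r = 0.992 with each, Rbm47, an RNA-binding protein gene, 0.991 with Mt1 and 0.992 with Mt2, and Ovol2, an epithelial transcription factor gene, 0.989 and 0.991. The fifth was Gid8 for Mt1, at 0.988, and Med13l for Mt2, at 0.991. Folr1 read 61.6 and 119.6 in Rbp2-/- cells and 142.7 and 242 in Rbp2f/f cells after withdrawal, against 393.6 and 285.1 in Rbp2-/- and 441.9 and 500 in Rbp2f/f with LIF. That is the order of groups seen for Mt1.

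The genes closest to Slc30a1 were others, namely H2ax (0.978), Grhl2 (0.977), Zfp407 (0.962), Misp3 (0.96) and Mapkapk3 (0.956). Between members, Slc30a1 had r = 0.808 with Mt1 and with Mt2, which placed 1160 and 1193 in order among the genes compared with each. Mtf1 had r = 0.722 with Mt1, Mt3 had 0.707, and Slc39a10 had -0.508. These values describe 8 arrays that share 4 conditions, so any gene that follows the conditions scores high.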

How the data were processed

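Per the labels' protocols, RNA from mouse ES cells was purified on columns with DNase digestion, labelled with biotin and hybridised to Affymetrix mouse genome arrays. The deposited values are intensities per probe set on a linear scale, from 0 to 11476.5. No source used here names the summarisation software, background correction or scaling, and no detection calls or depth apply, so the number of arrays limits the precision.

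Probe sets were named from the platform's annotation table. Each gene was read from the brightest of its probe sets by mean intensity, and genes at or above the 40th percentile of that mean, 10916 of 18193, were tested. All 6 members passed. Intensities were taken as log2(value + 16) and fitted with limma 3.58.1 in R 4.3.3 (lmFit on 4 group means over 8 arrays, eBayes with a mean-variance trend, 4 residual and 10.9 prior degrees of freedom). Two-sided p-values were adjusted by Benjamini-Hochberg over all genes tested, and a gene was called under 0.05. Errors are standard errors of the fit. The other probe sets of the members come from a fit over all probe sets without the filter.

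Named list genes were, per contrast, called genes whose arrays did not overlap, up to 3 in each direction, or those with the smallest p; the closest genes were the 5 with the highest Pearson r. The members and lists were chosen with earlier results of these data known, and of 95 list genes 93 were measured and 76 tested. Alternatives were quantile normalization, median centring, filters, pseudocounts, variance models, probe set summaries, fewer arrays, a threshold of 0.01, the replicate number as a block, and each array left out. Data were simulated 10 times for the genotype effect without LIF over 10916 genes, with 200 genes changed. There 99.8% of changes of 2 in log2 were recovered and 41.1% of changes of 1, and 6.99% of calls were false. The data themselves gave 3 calls in this comparison, and recovery with fewer changed genes was not simulated.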

Additional observations from a re-analysis of the deposited data

How the results depend on the processing

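Over 21 alternatives per comparison, and 20 for the difference of the withdrawal effects, Mt1 and Mt2 were called lower on withdrawal in both genotypes every time. Mt3 was called lower in Rbp2f/f cells in each of the 20 alternatives in which it passed the filter, and the filter favoured that fall. Between genotypes with LIF, and for the difference of the withdrawal effects, 0 members were called under any alternative. Without LIF the genotypes gave 3 called members (Mt1, Mt2 and Slc30a1) with array weights, 3 with the replicate number as a block, and 0 to 3 with single arrays left out; the cause was not tested. The labels do not say that a replicate number marks a shared culture or day, and deviations of same-numbered arrays correlated at 0.248 between the genotypes without LIF, -0.0827 with LIF, 0.261 between media in Rbp2-/- and -0.0568 in Rbp2f/f. In Rbp2-/- withdrawal the block added Mt3 (limma adjusted p = 0.035), as did a fit of those 4 arrays alone (0.027).

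Signs turned for small, uncalled differences. With LIF, quantile normalization gave 0.037 for Mt1, 0.14 for Mtf1 and 0.076 for Slc39a10, median centring 0.021 for Mtf1, and averaged probe sets 0.097 for Slc39a10. Averaged probe sets also gave Slc39a10 0.061 between genotypes without LIF, and Mtf1 0.017 for withdrawal in Rbp2-/-. For the difference of the withdrawal effects, Slc39a10 was -0.19 after quantile normalization, -0.047 after centring and -0.036 with averaged probe sets, where Mtf1 was 0.017. With single arrays left out, the ranges that crossed 0 were -0.86 to 0.069 for Mt3 and -0.46 to 0.23 for Mtf1 between genotypes with LIF, and -0.20 to 0.013 for Slc39a10 without LIF. For Mtf1 on withdrawal they were -0.41 to 0.22 in Rbp2-/- and -0.40 to 0.29 in Rbp2f/f. For the difference of the withdrawal effects they were -0.38 to 0.30 for Mtf1, -0.017 to 0.35 for Slc39a10 and -0.88 to 0.23 for Slc30a1. The cause was not tested. The number of genes called overall also moved. Between genotypes with LIF it was 28 as deposited, 0 after quantile normalization or with array weights, 117 with the replicate number as a block, and 0 to 2447 with single arrays left out, the highest when the dim array stood alone in its group. Without LIF it was 3 as deposited, 0 after quantile normalization, 54 with a pseudocount of 64, 149 with the block, 487 with array weights and 0 to 130 with single arrays left out.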

Other observations

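Genes of copper handling, which shares metallothionein as a binding protein, were tested as a list of 11. On withdrawal 2 were called higher and 0 lower in each genotype, against backgrounds of 19.7% and 3.33% in Rbp2-/- and 13.4% and 6.97% in Rbp2f/f cells. Atp7a, the copper-exporting ATPase gene, read 205.1 and 195.8 in Rbp2-/- and 260.9 and 246.1 in Rbp2f/f without LIF, against 109.2 and 52.4 in Rbp2-/- and 100.1 and 131.7 in Rbp2f/f with LIF. It rose by 1.23 ± 0.30 in Rbp2-/- and 1.04 ± 0.30 in Rbp2f/f on the log2 scale (limma adjusted p = 0.0097 and 0.023). The copper importer gene Slc31a1 rose by 0.81 ± 0.25 in Rbp2-/- cells (limma adjusted p = 0.029; 0.20 after quantile normalization), and Slc31a2 rose by 1.43 ± 0.27 in Rbp2f/f cells (limma adjusted p = 0.0022). Between genotypes 0 of the 11 passed in either medium, and as deposited 0 had an unadjusted p under 0.05.

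Metallothionein genes also respond to oxidative stress and to glucocorticoids. Of 9 tested NRF2 antioxidant genes, 0 were called higher and 1 lower in Rbp2-/- cells on withdrawal, and 0 higher and 3 lower in Rbp2f/f cells, where 3.33% and 6.97% of all genes were lower, with list medians of -0.34 and -0.70 beside all-gene medians of 0.39 and 0.07. Nqo1, a quinone reductase gene, fell by 1.00 ± 0.32 in Rbp2-/- (limma adjusted p = 0.038, and 0.11 without the filter). In Rbp2f/f it was at -0.66 (limma adjusted p = 0.17). Gclc, Gsr and Gclm, all genes of glutathione metabolism, changed by -1.29, -1.26 and -1.14 in Rbp2f/f (limma adjusted p = 0.010, 0.012 and 0.020). In Rbp2-/- these were at -0.22, -0.74 and -0.66 (limma adjusted p = 0.64, 0.10 and 0.15). After quantile normalization 5 of the 9 genes were lower in each genotype, where 8.23% of all genes were lower in Rbp2-/- and 13.1% in Rbp2f/f cells. Glucocorticoid response genes, 8 tested, split: 1 higher and 2 lower in Rbp2-/- cells, and 3 higher and 3 lower in Rbp2f/f cells, against the same backgrounds as the copper genes. After quantile normalization it was 1 and 3 in Rbp2-/-, and 2 and 4 in Rbp2f/f cells. Tsc22d3 rose by 1.96 ± 0.29 in Rbp2-/- and 1.16 ± 0.29 in Rbp2f/f (limma adjusted p = 0.00042 and 0.011). Its arrays with LIF alone would not have cleared the filter, so it was tested through the arrays where it is high. Without the filter it was still called (limma adjusted p = 0.0066 in Rbp2-/- and 0.041 in Rbp2f/f). Klf9 changed by -1.77 ± 0.32 in Rbp2-/- and -2.15 ± 0.32 in Rbp2f/f (limma adjusted p = 0.0018 and 0.00039). Sgk1 changed by -2.53 ± 0.32 in Rbp2-/- and -1.34 ± 0.32 in Rbp2f/f (limma adjusted p = 0.00012 and 0.0084). No member of either list passed between genotypes.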
